A study of Mus musculus with 2 samples.

Results

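The regions described here are 4056 peaks of a vitamin D receptor (VDR) immunoprecipitation that lay at the ends of genes, here named sites. They were called in fetal heart chromatin from vitamin D deficient pregnancies and not nearby in chromatin from pregnancies on a normal diet. Whether VDR bound the DNA at each of them was not tested. The sites were taken from 37661 peaks in the deficient-diet list. A peak was kept when it lay on an autosome or the X chromosome, had no normal-diet peak within 1 kb of its edges, and had its summit within 1 kb of either end of a RefSeq gene span. Bins of 100 kb that held 10 or more peaks of either list were left out. The sites were thus chosen by the measured positions of peaks in both lists, so the number of sites and their absence from the normal-diet list are descriptions and not findings.

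The study asked, by its title, how a lack of vitamin D in the mother affects heart formation and chromatin structure in the offspring. VDR was immunoprecipitated from chromatin of the left ventricle of mouse embryos at embryonic day 16.5, and the recovered DNA was sequenced (ChIP-seq). There were 2 libraries, 1 from embryos whose mothers were fed a normal diet and 1 from embryos whose mothers were fed a vitamin D deficient diet. The labels give neither the strain, the sex nor the number of embryos or mothers behind a library. With 1 library a diet, diet and library cannot be told apart and no test between the diets was possible. All statements below compare these 2 libraries. A peak list measures no expression, so the labelled tissue could not be checked against the level of its marker genes.

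VDR is a nuclear receptor that is activated by the hormonal form of vitamin D, calcitriol. It binds DNA mostly as a partner of a retinoid X receptor, at direct repeats of a hexamer close to AGGTCA, and recruits coactivators or corepressors to nearby genes. Its best known target genes handle calcium transport and the breakdown of vitamin D itself, and in the heart vitamin D signalling has been studied for its effects on cardiomyocyte growth and on the renin-angiotensin system.

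To show what the DNA around these summits looked like, 7 upstream sequences are printed, each the 250 bases before a gene start that had such a summit close by. Egr4, Bloc1s4 and Selenot come from the 10 promoter sites with the highest deposited score, and Tbx20, Cdk1, Cdc20 and Mad2l1 from the gene lists described below; they were picked after their values were seen, among windows that overlap no other gene span. All run 5′ to 3′ along the gene's strand, are from RefSeq build GRCm38.p6 (the assembly that mm10 names), and were not read from the libraries. Capitals mark single VDR hexamers (AGGTCA or AGTTCA, and also GGGTCA or GGTTCA), the GC box GGGCGG and the ETS motif CCGGAAG, on either strand.
Egr4 (chr6:85513590-85513839, minus strand): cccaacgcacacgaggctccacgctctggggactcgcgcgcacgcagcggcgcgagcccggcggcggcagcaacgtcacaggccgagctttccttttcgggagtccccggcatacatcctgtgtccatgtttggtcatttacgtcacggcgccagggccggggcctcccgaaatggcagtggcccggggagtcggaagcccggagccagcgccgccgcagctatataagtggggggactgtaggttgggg
Bloc1s4 (chr5:36748680-36748929, minus strand): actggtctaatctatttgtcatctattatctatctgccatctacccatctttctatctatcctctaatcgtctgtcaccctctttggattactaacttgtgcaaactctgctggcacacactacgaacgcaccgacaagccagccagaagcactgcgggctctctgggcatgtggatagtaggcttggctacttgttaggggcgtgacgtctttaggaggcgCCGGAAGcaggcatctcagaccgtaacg
Selenot (chr3:58576386-58576635, plus strand): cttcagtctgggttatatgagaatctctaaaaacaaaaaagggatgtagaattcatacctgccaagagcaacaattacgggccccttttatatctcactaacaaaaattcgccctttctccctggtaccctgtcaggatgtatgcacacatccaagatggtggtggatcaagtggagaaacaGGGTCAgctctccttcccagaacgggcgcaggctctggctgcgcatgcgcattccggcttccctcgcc
Tbx20 (chr9:24774304-24774553, minus strand): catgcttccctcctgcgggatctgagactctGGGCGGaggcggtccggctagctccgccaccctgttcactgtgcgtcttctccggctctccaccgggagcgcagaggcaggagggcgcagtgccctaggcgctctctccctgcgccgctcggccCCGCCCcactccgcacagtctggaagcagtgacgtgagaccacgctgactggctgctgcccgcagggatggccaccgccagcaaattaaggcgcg
Cdk1 (chr10:69352913-69353162, minus strand): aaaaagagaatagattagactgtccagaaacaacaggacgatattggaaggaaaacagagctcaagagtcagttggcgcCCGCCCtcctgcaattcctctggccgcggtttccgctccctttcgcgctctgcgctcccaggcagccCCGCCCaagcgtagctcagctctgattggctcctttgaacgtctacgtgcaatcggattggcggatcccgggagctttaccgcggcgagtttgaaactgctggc
Cdc20 (chr4:118437344-118437593, minus strand): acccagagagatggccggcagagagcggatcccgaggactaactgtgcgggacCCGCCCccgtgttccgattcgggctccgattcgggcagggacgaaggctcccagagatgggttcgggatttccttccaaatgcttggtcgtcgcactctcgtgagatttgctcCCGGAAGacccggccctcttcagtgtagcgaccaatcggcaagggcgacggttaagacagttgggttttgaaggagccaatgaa
Mad2l1 (chr6:66534971-66535220, plus strand): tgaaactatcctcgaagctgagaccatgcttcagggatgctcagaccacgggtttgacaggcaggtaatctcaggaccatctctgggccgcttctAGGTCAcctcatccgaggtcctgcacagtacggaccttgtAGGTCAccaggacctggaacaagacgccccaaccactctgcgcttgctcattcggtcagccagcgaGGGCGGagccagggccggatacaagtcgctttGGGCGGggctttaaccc

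The Mad2l1 window held 2 AGGTCA hexamers and 2 GC boxes, and the Selenot window held 1 VDR hexamer (GGGTCA). The windows of Egr4, Tbx20, Cdk1, Cdc20 and Bloc1s4 held no VDR hexamer. GC boxes stood at 2 places in each of the Tbx20 and Cdk1 windows and at 1 place in the Cdc20 window. The ETS motif stood once in each of the Cdc20 and Bloc1s4 windows. The 7 windows ranged in G+C content from 49.6% (Selenot) to 68.8% (Tbx20).

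The same features were counted over all promoters that held a summit. Of the 4056 sites, 409 had the summit inside a RefSeq promoter window, which runs from 250 bases before to 50 after a gene start, and together they touched 468 windows of 437 genes. No window held the VDR direct repeat, that is, any 2 of the 4 hexamers above in the same direction with 3 bases between them. A count of 0 of 468 allows a share of up to 0.641%, taken as 3 counts of the total (the exact 95% interval ends at 0.785%), and among all 32619 promoter windows the repeat was also rare, at 13 windows (0.0399%). At least 1 single VDR hexamer was present in 180 of the 468 windows (38.5%, exact 95% binomial interval 34.0 to 43.0), beside 43.8% of all promoter windows. The AGGTCA form alone was in 15.4% (12.2 to 19.0) of them and in 16.2% of all windows. The hexamers were not more frequent in these windows than in the whole table.

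Motifs of broadly used promoter factors were more frequent at these summits than in the whole promoter table. The GC box GGGCGG, which SP and KLF factors bind, was in 277 of 468 windows (59.2%, 54.6 to 63.7) against 35.9% of all windows. The ETS motif CCGGAAG was in 84 windows (17.9%, 14.6 to 21.7) against 8.92%. The TATA box TATAAA went the other way, with 31 windows (6.62%, 4.54 to 9.27) against 13.7%. Promoter windows with other summits were similar in this. Those summits, here and in the composition below, were shared or normal-only and were not limited to the ends of gene spans. The GC box was in 56.6% (50.6 to 62.5) of the windows with a shared summit and in 52.7% (48.1 to 57.2) of those with a normal-only summit. The ETS motif was in 22.1% (17.4 to 27.4) and 23.0% (19.3 to 26.9), and TATAAA in 5.69% (3.29 to 9.08) and 4.92% (3.18 to 7.23). These differences from the whole table were thus not particular to the deficient-only sites. The CCAAT box, searched as ATTGG, was at 37.2% against 37.6%. The sets differ in gene class, with 75.4% of the windows with a summit and 64.5% of all windows at protein-coding genes. Among protein-coding genes alone the GC box was in 63.7% against 46.7%, the ETS motif in 20.1% against 11.7% and TATAAA in 6.80% against 12.7%. GATAAG, a form of the site for the cardiac GATA factors, was in 4.91% (3.14 to 7.28) of the windows with a summit against 7.47% of all. All motifs were searched on both strands, GATAAG overlaps AGATAA, and a match is a description of the letters only.

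These promoters were also rich in CpG dinucleotides, as promoters of widely expressed genes often are. Their median G+C content was 61.7% against 53.0% in all promoter windows. The median CpG observed over expected ratio was 0.718 against 0.387, and 303 of the 468 windows (64.7%) were at 0.6 or more against 36.0% of all. Promoters with a summit of the deficient-diet list that the normal-diet list shared within 1 kb had 75.4% of windows at 0.6 or more, and promoters with a summit of the normal-diet list only had 71.7%. With protein-coding genes alone the shares were 71.4% for the deficient-only sites, 79.6% for the shared ones, 75.1% for the normal-only ones and 48.1% for all. The plot of promoter composition shows that the promoters with a deficient-only and with a normal-only summit had nearly the same outline.

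**Figure D1:**
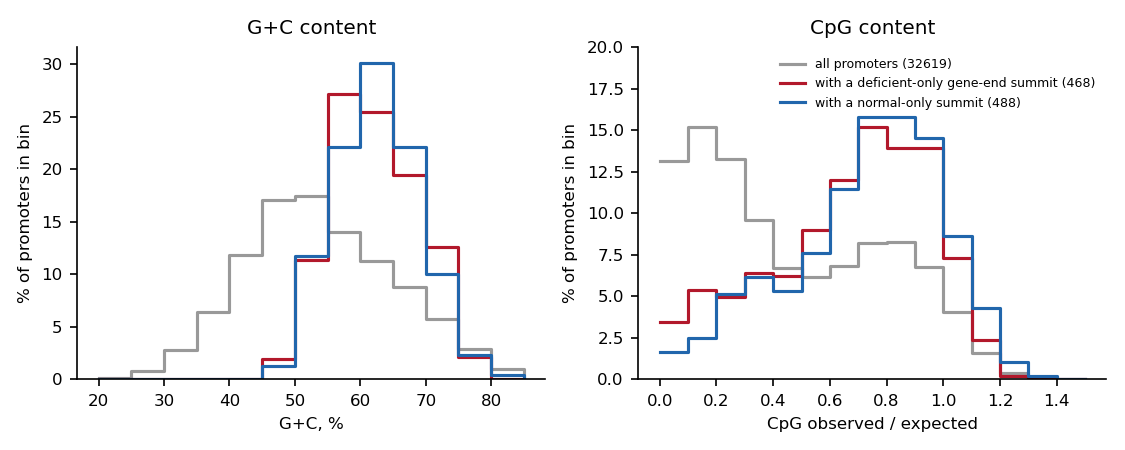
Composition of RefSeq promoter windows of 300 bases: the x axes give G+C content in % and the CpG observed over expected ratio, and the y axes the % of windows in each bin, for all 32619 windows (grey), the 468 with a deficient-only gene-end summit (red) and the 488 with a normal-only summit (blue). The normal-only summits were not limited to the ends of gene spans. The red and blue outlines lie to the right of the grey one on both axes, with median G+C contents of 61.7%, 62.0% and 53.0%.

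Where the gene's strand was known, most of the sites lay at its start. Strand came from the promoter table and was available for 26794 of the 49554 gene spans. Of the 2680 sites near such a gene, 1907 were within 1 kb of a start, which is 71.2% (exact 95% binomial interval 69.4 to 72.9, counting error only). This share was lower than at gene-end peaks that the lists shared, where 1141 of 1398 peaks of the deficient-diet list were at a start (81.6%, 79.5 to 83.6). It was also lower than at gene-end peaks of the normal-diet list only, with 1588 of 1995 (79.6%, 77.8 to 81.3). The intervals count peaks of single libraries and do not measure a difference between diets. With protein-coding genes alone the shares were 72.6% (70.6 to 74.4), 82.7% (80.5 to 84.8) and 81.6% (79.7 to 83.5), in the same order. Sites within 1 kb of starts on both strands were 259 of the 1907 start sites (13.6%), beside 16.0% of the shared and 18.8% of the normal-only start peaks.

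The summits clustered just inside genes. Over the 2174 pairs of a summit and a start within 1 kb, the median summit lay 168 bp downstream of the start and 67.4% lay downstream. The densest 100 bp ran from 100 to 200 bp downstream, with 10.7% of the pairs, and 716 pairs (32.9%) were within 200 bp of the start. The far ends of genes had a different profile. Of 1002 pairs there, 107 (10.7%) were within 200 bp, 66.5% lay on the gene's side of the end, and the 100 bp just past the end held 1.50%. In shared peaks the start pairs within 200 bp were fewer, at 26.6%, and in normal-only peaks they were 33.2%.

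**Figure D2:**
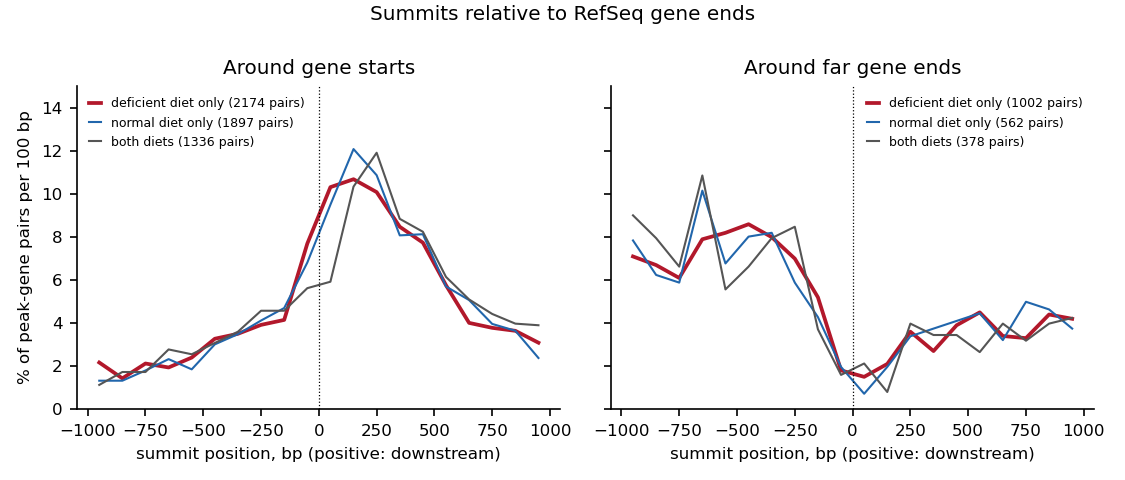
Position of summits around gene starts (left) and far gene ends (right), in bp along the gene's direction on the x axis, against the % of summit and gene pairs in each 100 bp on the y axis, for gene-end peaks of the deficient diet only (red), the normal diet only (blue) and both diets (grey, deficient-diet list). The red line is highest from 100 to 200 bp downstream of the start, at 10.7%, and falls to 1.50% just past the far end.

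The sites fell near 4369 genes, which is 8.82% of the 49554 gene spans examined. Protein-coding genes had such a site most often among the large classes, 2730 of 21631 or 12.6%. MicroRNA genes followed with 99 of 1228 (8.06%), then long non-coding RNA genes with 848 of 12697 (6.68%), pseudogenes with 531 of 9852 (5.39%) and snoRNA genes with 71 of 1340 (5.30%). Small nuclear RNA genes were low, with 9 of 1003 (0.897%). For the normal-only peaks the corresponding shares were 6.53% of all genes and 10.2% of protein-coding ones, from a shorter list. Counted by site, 2667 of the 4056 (65.8%, 64.3 to 67.2) were near a protein-coding gene, a smaller share than in the shared (76.4%, 74.5 to 78.3) and the normal-only gene-end peaks (73.0%, 71.4 to 74.7).

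Most sites stood alone. Of the 4369 genes, 4058 had 1 site, 295 had 2 and 16 had 3, and 3468 sites were near a single gene. Among protein-coding genes with a site, 952 (34.9%) had a normal-diet summit elsewhere in the gene or within 1 kb of it, beside 38.8% of all protein-coding genes. The remaining 1778 genes had none. The rule itself left no normal-diet peak within 1 kb of a site, so these 2 shares cannot be compared as a result. By chromosome, the share of genes with a site was highest on chromosome 11 (11.1%) and chromosome 4 (10.8%) and lowest on the X chromosome (3.54%), where 89 of 2512 genes had one. The next lowest was chromosome 6, with 7.09%.

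The sites were modest in height. Each fold enrichment and p-value in the deficient-diet file was turned back into the number of fragments at the summit and in the local background. The summit held 16 to 70 fragments with a median of 22, over a background of 5.38 to 32.0 with a median of 5.38. The authors' fold enrichment ran from 1.86 to 5.48 (median 3.45) and their -log10 q from 2.03 to 12.3 (median 3.95), where a q of 0.01 is a score of 2. Shared gene-end peaks of the same list had nearly the same medians (23 fragments, fold 3.45, -log10 q 4.01), as had the deficient-only peaks away from gene ends (22 fragments, 3.45 and 3.95). Widths were 162 to 734 bp, with a median of 210 bp beside 237.5 bp for the shared and 204 bp for the distal peaks. The narrowest width in the list, 162 bp, was that of 454 sites (11.2%) and of 6.78% of the shared peaks.

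The deficient-diet library had a higher background in fragments, and lower relative heights were called in it. A background in fragments also rises with sequencing depth. The numbers of reads are not given, so this background is no measure of noise. The genome-wide background was 5.38 fragments there and 2.65 in the normal-diet library, a ratio of 2.03. At that background the lowest summit called was 16 fragments in the deficient-diet list, 2.97 times the background, and 11 fragments in the normal-diet list, 4.14 times the background, here named the normal-diet ratio. A site with a ratio under 4.14 was thus lower, relative to background, than any summit called at the genome-wide background in the normal-diet list. Of the 4056 sites, 1063 (26.2%) were at or above 4.14, and of the 2270 sites at the genome-wide background 826 were at or above it and 1444 below. For those 1444 sites an absence from the normal-diet list was thus not a measured absence of binding. For sites on a raised background the ratio of 4.14 does not settle this. The normal-diet list held lower ratios there, down to 2.81 among its normal-only gene-end peaks. How much of the list rests on this difference in background was not tested.

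The median summit was the same at starts and at far ends, with 22 fragments, while a high -log10 q was somewhat more frequent at starts. Start sites had a -log10 q of 5 or more in 400 of 1907 cases (21.0%, 19.2 to 22.9), and sites only at a far end in 129 of 773 (16.7%, 14.1 to 19.5). The share at or above the normal-diet ratio of 4.14 was 27.0% (25.0 to 29.1) at starts and 24.6% (21.6 to 27.8) at far ends. Sites with and without a protein-coding gene nearby had nearly equal shares, 26.1% (24.5 to 27.8) and 26.3% (24.0 to 28.8). The 87 sites on the X chromosome had 18.4% (10.9 to 28.1) at or above the ratio and a median of 21 fragments.

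The gap to the nearest normal-diet peak ran from 1002 to 1073171 bp with a median of 25412 bp. Just inside the limit of 1 kb was a site near Sox18, a vascular transcription factor, with a gap of 1002 bp and 22 fragments, and just outside was a peak near 2610027F03Rik with a gap of 1000 bp and 20 fragments. On the distance to a gene end, a site 1000 bp from Cd22 (23 fragments) was just inside and a peak 1001 bp from Ppp1r16b (20 fragments) just outside. Bins with 9 peaks held 176 sites, and bins with 10 peaks held 173 that were left out.

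**Figure D3:**
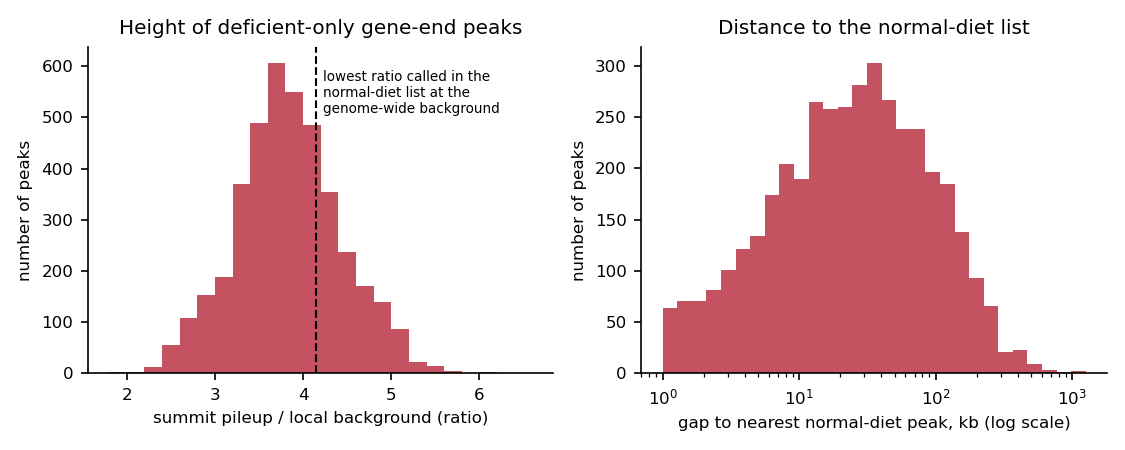
Left, number of deficient-only gene-end peaks (y axis) by the ratio of summit pileup to local background (x axis), with the lowest ratio called in the normal-diet list at the genome-wide background, 4.14, as a dashed line; 1063 of 4056 sites lie at or above it. Right, number of peaks by the gap to the nearest normal-diet peak in kb on a log axis, with a median of 25412 bp.

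The 10 sites with the highest deposited -log10 q mixed 2 kinds of location. The highest at a gene start was at Vegfc, which encodes the growth factor of lymphatic vessels. Its peak (chr8:54077474-54077716) held 34 fragments over a background of 5.38, a fold enrichment of 5.48 and a -log10 q of 11.8, with the summit 43 bp downstream of the start and the nearest normal-diet peak 69856 bp away. Egr4, an early growth response zinc finger factor, had 33 fragments over 5.38 (fold 5.33, -log10 q 11.0), 202 bp upstream of its start and 29499 bp from a normal-diet peak. Zfp410, a zinc finger factor, had 33 fragments over 5.82 (-log10 q 10.2), 780 bp from an end of its span. The pseudogene Ctdsp2-ps had 33 fragments over 5.38 and the snoRNA gene Gm24039 had 32 over 5.38. The other 5 stood on a raised background. Gm6483 had the highest -log10 q of all, 12.3, from 53 fragments over 12.6, Gm10354 had 51 over 12.6, Gm40504 62 over 17.4, Snord116l17 59 over 17.5 and Gm21711 65 over 20.4. Snord116l17 belongs to a cluster of repeated snoRNA copies, so its fragments could be split among copies. In all, 27 of the 4056 sites had a background above 2 times the genome-wide value.

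At promoters, the 10 sites with the highest -log10 q were led by Vegfc and Egr4. Next came Ap5m1, a subunit of an endosomal adaptor complex, with 30 fragments over 5.38 (-log10 q 8.91) and the summit 73 bp upstream. Bloc1s4, a subunit of a complex that builds lysosome-related organelles, had 31 over 5.97 and the summit 28 bp downstream. The lncRNA genes Gm31535, 2410017I17Rik and Gm16062 had 29, 30 and 30 fragments. A single peak of 29 fragments lay at the start shared by Pla2g2c, a secreted phospholipase, and Ubxn10. The last, 2210016F16Rik and Selenot, an endoplasmic reticulum selenoprotein, had 28 fragments each over 5.38. These sites had gaps of 1518 bp (Gm16062) to 95858 bp (Ap5m1) to the normal-diet list.

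Across 13 lists of genes chosen for the heart, vitamin D and chromatin, 72 of 406 genes had a deficient-only site at an end. This is 17.7% (14.1 to 21.8), beside 12.6% of all protein-coding genes. The lists were chosen with earlier results of these data known, so this share is a description and cannot serve as support for an excess. Normal-only peaks were at 48 of the 406 genes (11.8%), beside 10.2% of protein-coding genes. Shared peaks of the deficient-diet list were at 31 of the 406, beside 1507 of 21631 protein-coding genes (6.97%). The 72 genes carried 78 sites, which were as modest as the rest, with 17 to 27 fragments (median 22), a fold of 2.40 to 4.23 (median 3.29) and a -log10 q of 2.09 to 6.58 (median 3.95). At or above the normal-diet ratio were 18 of the 78, and 8 genes had a site with a -log10 q of 5 or more. Of the 72 genes, 36 had a normal-diet summit elsewhere in or within 1 kb of the gene and 36 had none. Among all 2730 protein-coding genes with a site, 952 (34.9%) had one. No list was set apart from protein-coding genes by its own interval, as the plot of the gene lists shows.

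**Figure D4:**
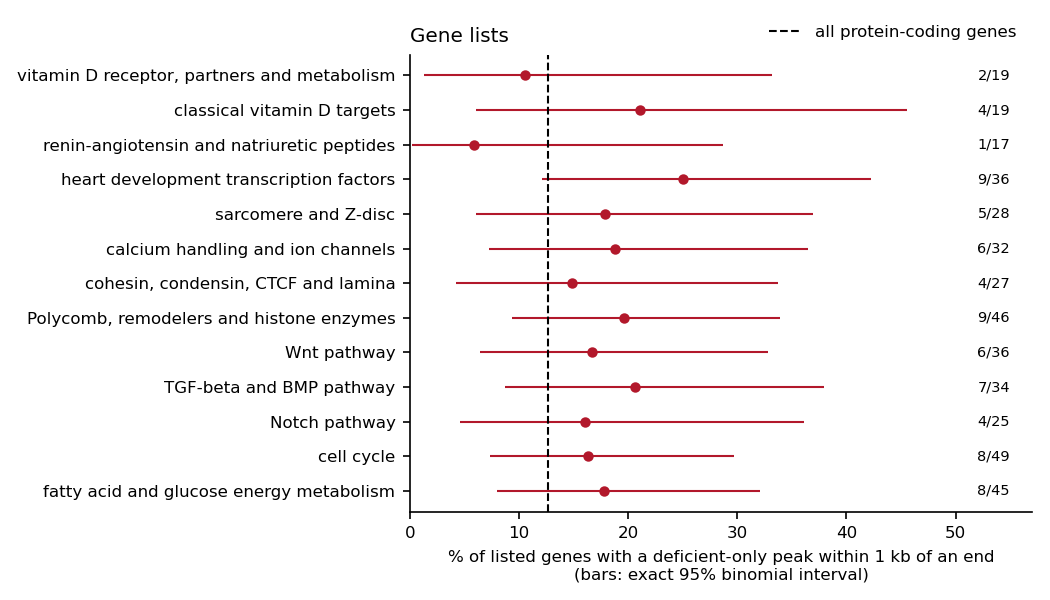
Percent of the genes in each of 13 lists that had a deficient-only peak within 1 kb of an end (x axis; points with exact 95% binomial intervals, number of genes at right), with the 12.6% of all protein-coding genes as a dashed line. The points run from 5.88% (renin-angiotensin and natriuretic peptides, 1 of 17) to 25.0% (heart development transcription factors, 9 of 36), and most intervals are wide.

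Of 19 genes for the receptor, its partners and vitamin D metabolism, 2 had a site. The gene of the receptor itself, Vdr, had 24 fragments over a raised background of 7.76 (fold 2.85, -log10 q 3.29; chr15:97907922-97908128), 283 bp inside the start, and the nearest normal-diet peak was 5449 bp away. Vdr also had 4 normal-diet summits in or near its span. Lrp2, megalin, the receptor through which kidney cells take up vitamin D with its carrier, had 19 fragments over 5.38, 294 bp upstream of its start. Neither reached the normal-diet ratio, which for Vdr does not settle an absence because its background was raised.

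Of 19 classical vitamin D targets, 4 had a site, and Vdr is among them. Trpv6, an epithelial calcium channel, had a site at each end: 23 fragments over 5.38 at 335 bp inside the start (ratio 4.27, at or above the normal-diet one) and 21 over 5.38 at the far end, where a normal-diet peak was 2271 bp away. Calb1, the calcium buffer calbindin, had 22 over 6.79, 6 bp from an end of its span. Bglap, osteocalcin, had 17 over 5.38 at 269 bp upstream of the start, the lowest summit among all listed sites. In the renin-angiotensin and natriuretic list 1 of 17 genes had a site. This was Ace, the angiotensin converting enzyme, with 21 fragments over 5.38 at 331 bp upstream of its start and 19 over 5.82 at 585 bp inside the far end.

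Heart development transcription factors had sites at 9 of 36 genes. Isl1, a factor of second heart field progenitors, had the tallest, with 27 fragments over 5.66 (chr13:116309490-116309680, fold 4.20, -log10 q 6.58), 120 bp inside its start. The nearest normal-diet peak was 212415 bp away. Gata4, a core cardiac zinc finger factor, had 2 sites near the same end, with 24 over 5.42 at 633 bp from the end (-log10 q 5.29) and 24 over 7.76 at 44 bp. Mef2d, a MADS box factor of muscle genes, had 23 over 5.50 at 990 bp inside its start, and Nfatc1, a factor of valve formation, had 23 over 5.38 at 849 bp from an end. The sites at Isl1, Mef2d and Nfatc1 and the first at Gata4 were at or above the normal-diet ratio. Normal-diet summits also lay in or within 1 kb of the spans of Gata4 (3), Mef2d (2) and Nfatc1 (6), and none at Isl1.

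The remaining members of that list were below it. Tbx20, a T-box factor of chamber myocardium, had 20 fragments over 5.82 at 44 bp upstream of its start, 231986 bp from any normal-diet peak. Tbx5, the T-box factor mutated in Holt-Oram syndrome, had 20 over 5.82 at 262 bp from an end. Hand1, a factor of the left ventricle, had 22 over 5.97 at 776 bp, and Gata5 21 over 5.38 at 635 bp inside its far end. Tead1, the DNA-binding partner of YAP in the Hippo pathway, had 20 over 7.76 at 605 bp, with the lowest -log10 q of all listed sites, 2.09. Normal-diet summits lay in or within 1 kb of the spans of Tbx5 (3), Gata5 (2) and Tead1 (4), and none at Tbx20 and Hand1.

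Sarcomere genes had sites at 5 of 28. Myl7, the atrial myosin light chain, had the tallest with 26 fragments over 5.38 (fold 4.23, -log10 q 6.37), 854 bp inside its start and 57828 bp from a normal-diet peak. Tpm1, tropomyosin, had 25 over 6.79 at 43 bp inside its start. Acta1, skeletal alpha actin, had 24 over 8.73 at 656 bp upstream, and the site at Mybpc3, cardiac myosin binding protein C, had 19 over 5.71 at 689 bp past its far end.

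Calcium handling and ion channel genes had sites at 6 of 32, none of which was at or above the normal-diet ratio. Ryr2, the calcium release channel of the sarcoplasmic reticulum, had 25 fragments over 6.92 at 939 bp inside its start, 151604 bp from a normal-diet peak. Kcnq1, a potassium channel of repolarization, had 2 sites with 21 and 22 fragments over 5.38, at 50 and 961 bp from the same end. Kcnh2, the hERG potassium channel, had 21 over 5.82 at 153 bp inside its far end, with a normal-diet peak 2235 bp away. Cacna1g, a T-type calcium channel, had 21 over 5.38.

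Among chromatin genes, 4 of 27 for cohesin, condensin, CTCF and the nuclear lamina had a site. Lmnb1, lamin B1 of the nuclear lamina, had 27 fragments over 6.13 (-log10 q 5.96) at 647 bp from an end. Top2b, a DNA topoisomerase found at loop anchors, had 2 sites of 19 over 5.38, at 220 and 840 bp inside its start. Smc3, a core subunit of cohesin, had 21 over 6.79 at 274 bp upstream of its start, and Ncapg2, a condensin II subunit, 20 over 5.38 with a gap of 1069 bp, the smallest among the listed sites.

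Polycomb, remodeler and histone enzyme genes had sites at 9 of 46. Ep300, the histone acetyltransferase p300, had 27 fragments over 5.66 (fold 4.20, -log10 q 6.58) at 389 bp inside its start, and Hdac4, a histone deacetylase, 23 over 5.38 at 333 bp upstream. These were the members of that list at or above the normal-diet ratio. Kdm1a, the histone demethylase LSD1, had 21 over 7.76 with the summit 1 bp from its start. The other sites were at Suz12 (19 over 5.38) and Cbx7 (21 over 5.38), which are Polycomb subunits, the demethylase Kdm2b (21 over 5.50) and the methyltransferases Kmt2a (21 over 5.38), Kmt2c (20 over 5.38) and Ehmt1 (20 over 5.38).

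The signalling lists had sites at 6 of 36 Wnt, 7 of 34 TGF-beta and BMP, and 4 of 25 Notch pathway genes. Among Wnt ligands, Wnt4 had 2 sites, with 26 fragments over 7.76 and 19 over 5.38 at 507 and 790 bp inside its start, and Wnt11, which acts in heart morphogenesis, had 19 over 6.45. Of the receptors, Fzd5 had 20 over 5.97 and Fzd8 19 over 5.97. Gsk3b, the kinase that marks beta-catenin for destruction, had 23 over 5.38 and a gap of 1159 bp, and the secreted antagonist Sfrp1 had 23 over 5.38 and a gap of 154829 bp. Both were at or above the normal-diet ratio.

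In the TGF-beta and BMP list the sites were at ligands, a receptor, transducers and an antagonist. Bmp6 had 23 fragments over 5.38 at 483 bp inside its start, in a peak of 435 bp, and Bmp2 had 22 over 5.38 with a gap of 318351 bp. The endothelial receptor gene Acvrl1 (ALK1) had 26 over 7.76. The transducer Smad3 had 20 over 5.82, the inhibitory Smad6 and Smad7 had 23 over 5.38 and 24 over 7.76, and the BMP antagonist Chrd had 22 over 7.76. At or above the normal-diet ratio were Bmp6 and Smad6.

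All 4 Notch pathway sites lay at the far end of the gene, and the genes all had normal-diet summits elsewhere. Of all 2680 sites near a gene of known strand, 773 were only at a far end. A normal-diet summit lay in or within 1 kb of 34.9% of all protein-coding genes with a site. Whether the 4 Notch genes differed from other genes in either respect was not tested. Dll3, a divergent ligand, had 25 fragments over 5.38 (-log10 q 5.82) at 823 bp inside the far end, and was the single member of this list at or above the normal-diet ratio. Dll4, the ligand of arterial endothelium, had 22 over 5.38, and Ncstn, the gamma-secretase subunit nicastrin, 22 over 5.38. The receptor gene Notch1 had 21 over 7.76 and a gap of 1822 bp.

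Cell cycle genes had sites at 8 of 49. Cdk1, the kinase that drives entry into mitosis, had 24 fragments over 5.38 (chr10:69352834-69353027, fold 3.92, -log10 q 5.29) with the summit 41 bp upstream of its start, in the window printed above, and 116886 bp from a normal-diet peak. Mad2l1, of the spindle checkpoint, had 24 over 5.82 at 118 bp upstream, and Cdc20, the activator of the anaphase promoting complex that MAD2 holds back, had 23 over 7.76 at 73 bp upstream. E2f7, a repressor of E2F targets, had 23 over 5.38 at 335 bp inside its start, and E2f3 21 over 7.76 at 88 bp. Mcm4, of the replicative helicase, had 27 over 7.76, Rbl1 (p107) had 20 over 6.79, and Trp53, the tumour suppressor p53, had 23 over 5.38 at 745 bp past its far end. Cdk1, E2f7 and Trp53 were at or above the normal-diet ratio.

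**Figure D5:**
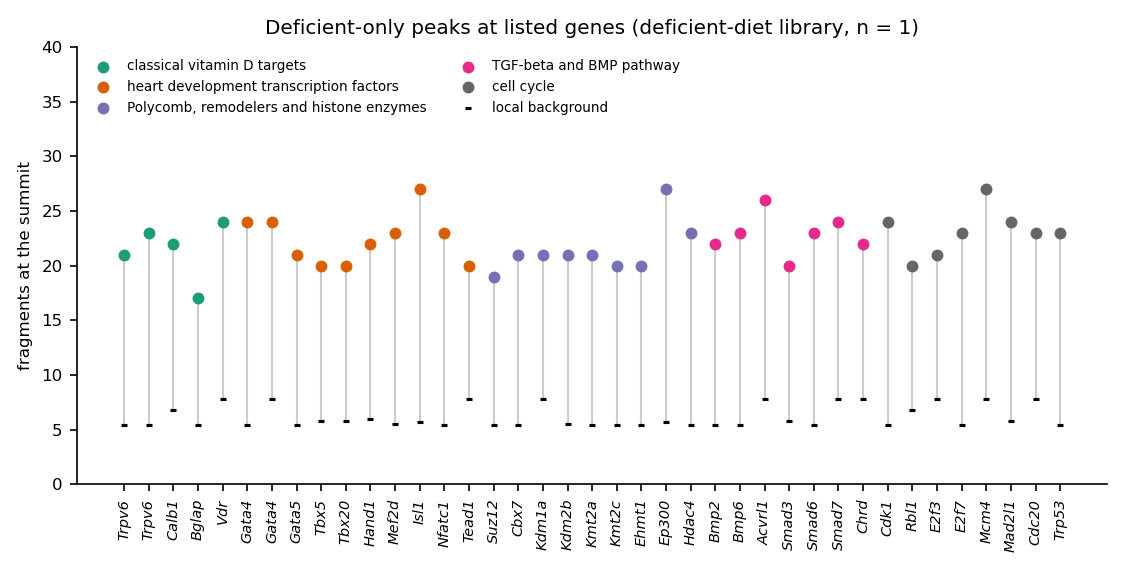
Fragments at the summit (coloured points) and in the local background (black dashes) on the y axis for each deficient-only gene-end peak at genes of 5 lists (x axis: gene symbols), in the 1 deficient-diet library. The summits hold 17 fragments (Bglap) to 27 fragments (Isl1, Ep300 and Mcm4).

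Energy metabolism genes had sites at 8 of 45. In fatty acid oxidation these were Cpt2 (19 fragments over 5.42), which moves acyl groups into the mitochondrial matrix, the acyl-CoA dehydrogenases Acadl (20 over 6.79) and Acadvl (25 over 7.39), and Hadha (21 over 5.38) of the trifunctional protein. In glucose use they were the transporter Slc2a4 (GLUT4, 22 over 5.38), the hexokinase Hk2 (27 over 6.79, -log10 q 5.29) and the pyruvate kinase Pkm (19 over 5.38). Idh3a, of the citric acid cycle, had 23 over 5.38 and was the single member of this list at or above the normal-diet ratio.

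Marker genes of 6 cell types a ventricle could hold and of skeletal muscle had a site in 4 of 36 cases (11.1%, 3.11 to 26.1), beside 12.6% of protein-coding genes, and 2 of the 4 were skeletal muscle factors. None of the 5 cardiomyocyte, 6 fibroblast, 6 smooth muscle and pericyte, or 5 blood markers had one. Flt1, an endothelial VEGF receptor, had 26 fragments over 6.79 at 11 bp upstream of its start, and Upk3b, of the epicardium, had 25 over 6.79. Of the 4 skeletal muscle factors, which the heart does not normally use, Myod1 had 26 over 5.38 (-log10 q 6.37) in a wide peak of 719 bp, and Pax7 had 2 sites with 27 over 5.38 (-log10 q 6.97) and 17 over 5.82. A peak at such a gene says nothing of whether it was expressed.

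Genes with 3 sites numbered 16. The protein-coding ones were Ceacam1, Chst14, Cplx1, Gp9, Gpr6, Hhat, Mrgpre, Noxa1, Nup188, Pou4f3 and Tmem235, and the others were 3110056K07Rik, 9530052E02Rik, Gm41655, Gm46873 and Gm5096. The strongest single site among them was at Hhat, the acyltransferase of Hedgehog proteins, with 30 fragments over 5.82 (-log10 q 8.17) at 177 bp inside the start. The other sites at Hhat had 21 over 5.38 and 24 over 5.82 near the far end. Cplx1, complexin of synaptic vesicles, had its 3 sites within 1 kb of its start, with 26, 18 and 22 fragments. Gm46873 starts beside Pax7, and 2 of its 3 sites are the sites named at Pax7.

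Of the 99 microRNA genes with a site, 97 had a mature sequence in the RefSeq table. They belonged to 79 peaks, since clustered microRNA genes share a peak, and only 8 of 155 seeds (bases 2 to 8 of the mature RNA, which pair with target messages) occurred in 2 or more of the genes. Shown are examples picked after their values were seen: 3 sets of genes that share a peak and a seed, miR-24-3p, whose hairpin end lay 37 bp from a summit, and miR-499-5p, which is encoded in a cardiac myosin gene. Capitals mark the seed.
miR-195a-5p: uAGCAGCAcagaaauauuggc
miR-497a-5p: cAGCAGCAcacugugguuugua
miR-200b-3p: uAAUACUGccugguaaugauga
miR-429-3p: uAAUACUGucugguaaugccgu
miR-290a-5p: aCUCAAACuaugggggcacuuu
miR-292a-5p: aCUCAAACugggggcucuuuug
miR-293-5p: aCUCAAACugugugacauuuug
miR-24-3p: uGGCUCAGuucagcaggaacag
miR-499-5p: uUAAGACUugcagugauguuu

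The first pair has the seed AGCAGCA, which defines the miR-15 family, known in the heart for restraining cardiomyocyte division. Mir195a and Mir497 shared a peak (chr11:70235647-70235864) of 21 fragments over 5.38 (-log10 q 3.95), with a normal-diet peak 4910 bp away. Mir200a, Mir200b and Mir429, of the miR-200 family that keeps cells epithelial, shared a peak of 24 over 5.38 (-log10 q 5.29; chr4:156054697-156054937) with a gap of 6217 bp. The peak with the most genes, 9 with the lncRNA gene D7Ertd143e and Nlrp12 among them, lay in the Mir290 cluster of early embryonic microRNAs (chr7:3219398-3219593) and held 22 fragments over 5.97, 69696 bp from a normal-diet peak. The peak over the cluster of Mir23b, Mir27b and Mir24-1 (chr13:63301219-63301467) held 25 over 5.97 (-log10 q 5.21), 37 bp from an end of the Mir24-1 hairpin and 137594 bp from a normal-diet peak. The peak near Mir499 (chr2:155622173-155622391) was low, with 20 fragments over 5.83 (-log10 q 3.19), 560 bp from the hairpin and 3981 bp from a normal-diet peak.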

How the data were processed

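VDR ChIP-seq peaks of 2 mouse libraries, 1 from left ventricles at embryonic day 16.5 under a normal maternal diet and 1 under a vitamin D deficient one, were used as deposited. The submitters' processing notes name MACS2 and SAMtools without versions; the build is mm10, per the file headers. Reads, trimming and input controls are not given in the sources used here. For each peak the authors deposited a fold enrichment (a ratio of summit to local background), a -log10 p and a -log10 q, and a display score. The lists held 37661 deficient-diet and 23457 normal-diet peaks, of which 1 with no start was left out. In the normal-diet file the end and the score were joined by a point, and the end was taken as the part before it.

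Summit fragments and background were recovered from fold = (pileup + 1) / (background + 1) and a Poisson tail, a reading no header states; the recovered -log10 p differed from the deposited one by at most 0.000293. A bin was left out when 10 or more summits of 1 list fell in it (357 bins). Gene spans, promoter windows and microRNAs are from RefSeq GRCm38.p6 and were matched by symbol or gene ID. Strand was taken from the promoter table alone, so start and far end were told apart for 26794 of 49554 spans, and chromosome 18 has no entry there. Motifs were searched on both strands of 300 bases.

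No test was made, because a diet had 1 library; shares have exact 95% binomial (Clopper-Pearson) intervals, which cover counting error over peaks or genes of 1 library only. Named genes were those of 13 gene lists and 7 marker lists with a site, the 10 sites with the highest -log10 q overall and at promoters, genes with 3 sites, and the peaks at each limit; a few of these genes are counted but not reported here by name. Members and lists were chosen with earlier results of these data known. Alternatives changed the q, the gap, the distance, the bins, the list length, the gene class and the background. Scripts used Python 3.11.15, numpy 2.4.6, pandas 2.3.3, scipy 1.17.1 and matplotlib 3.10.9, and were tested on simulated peaks.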

Additional observations from a re-analysis of the deposited data

Results flagged for a closer look

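The bins of 100 kb with 10 or more peaks hold deficient-only gene-end peaks that the counts above leave out. There were 618 of them in 262 such bins, near 610 genes, and they would be 13.2% of all deficient-only gene-end peaks if the bins were kept. Their median summit held 22 fragments over a median background of 5.41, and the fullest bin held 12.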

How the results depend on the processing

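The 4 counts and shares were recomputed under 10 alternatives, giving 39 values of which 23 moved; counts moved when they changed by over 1.5 times and shares when they left the interval of the first value. The values are, in order, the sites, their genes and the share at a gene start (4056, 4369 and 71.2% above). They became 824, 941 and 75.6% with a -log10 q of 5 or more, 2639, 2836 and 78.1% with summits within 500 bp of a gene end, and 7305, 7880 and 63.6% within 3 kb. With peaks at the genome-wide background only they were 2270, 2456 and 68.7%, and 63.8% of those sites were near a protein-coding gene. At or above the normal-diet ratio of 4.14, an alternative chosen after seeing the data, the values were 1063, 1220 and 73.0%. After the deficient-diet list was shortened by rank to the length of the normal-diet one, the sites were 2423 and the genes 2704, and with protein-coding genes only 2667 and 2730. The start share was 73.8% with no normal-diet peak within 5 kb and 68.4% with no bin left out, and the protein-coding share 67.3% with no overlapping normal-diet peak. In all alternatives run most sites with a known strand were at a start. No paired analysis was possible because the diets were sampled by a single library each, and for the same reason leaving out a library would leave no comparison. The normal-diet list had a lower recovered background, which also depends on sequencing depth, and a higher lowest ratio called at it. Absence from that list thus need not mean absence of binding. How much of the result rests on this was not tested.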
